A study of Mus musculus with 2 samples.

Results

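Newborn rod photoreceptors are described here in single-cell RNA sequencing of mouse eye cups at postnatal day 0. They were chosen by measured values. A barcode (the tag shared by all transcripts of one droplet) was taken as a rod if at least 2 of the 6 genes Nrl, Nr2e3, Sag, Gngt1, Pdc and Rp1 had a unique molecular identifier (UMI, one captured transcript). It also had to hold no UMI of the cone genes Thrb, Rxrg and Opn1sw and none of Tfap2b or Pou4f2, which mark amacrine and horizontal cells and ganglion cells. The gate found 1268 rods among 26158 kept barcodes, 709 of them in the control library and 559 in the mutant library.

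The control library came from Myrf fl/fl pups, in which both copies of Myrf carry sites for cre, and the mutant library from Rx>cre Myrf fl/fl pups. Myrf encodes a membrane-bound transcription factor of the retinal pigment epithelium (RPE). Rx>cre makes the recombinase in the early eye field, so the neural retina that gives rise to rods carries the deletion as well as the RPE. The study used the time point to look for changes in the RPE and in the cells next to it. Each library pooled 3 eye cups, with cornea, lens and optic nerve removed, and there was 1 library per genotype. No test between genotypes was therefore possible, and every interval below covers counting error only, not the spread between pups or libraries.

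Rods are the dim-light photoreceptors of the retina. Otx2 and Crx start the photoreceptor programme, Nrl directs postmitotic precursors to the rod fate, and Nr2e3 acts with Nrl to hold cone genes down. The G protein transducin, the phosphodiesterase that breaks down cGMP and the cGMP-gated channel then form the light response in an outer segment that faces the RPE. Most mouse rods are born around birth, so at this age few have reached the stage at which proteins of the outer segment are made in bulk.

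The control file held 14305 barcodes with 79017429 UMIs and the mutant file 12222 barcodes with 76272867 UMIs. Of these, 14131 and 12027 passed the limits of 200 genes and 15% mitochondrial UMIs. The 2 files shared 59 barcode sequences, and 0 of the rods were among them. Rods were shallower than other kept barcodes, with a median of 2731 against 4330 UMIs for the control and 3522 against 5061.5 for the mutant. Scrublet, set to mark an expected 11.3% of control and 9.62% of mutant barcodes, marked 19.6% of control and 16.6% of mutant rods. These rods were kept in the values below. By its own threshold Scrublet marked 0% of control and 5.46% of mutant barcodes.

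Rods made up 5.02% of kept control barcodes (95% exact interval 4.66 to 5.39) and 4.65% of kept mutant barcodes (4.28 to 5.04). The intervals overlapped, and the log2 ratio of the shares was -0.11. With barcodes of at most 2000 UMIs, the doublet limit that the study states, it was -0.69. Rods of at most 2000 UMIs were 27.2% of control rods and 6.44% of mutant rods. Among barcodes with at least 2 rod markers, 1313 in the control and 1235 in the mutant, cone gene UMIs were the main reason to be left out. They were present in 36.4% of the control and 47.5% of the mutant barcodes, and in 20.2% and 26.3% after each barcode was thinned to 1000 UMIs. Without the cone gene exclusion rods were 7.72% of control and 8.63% of mutant barcodes, which gives a log2 ratio of 0.16. The ratio was also above 0 with at most 5% mitochondrial UMIs (0.046), with Nrl required (0.073) and without rods that carried RNA of other cells (0.069), each with an interval that held 0. As a share of rods, cones and precursors, rods were 32.8% in the control library and 28.6% in the mutant library (-0.20, -0.36 to -0.04). The direction of the share therefore depended on the gate and the filters.

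The gate split rods over a wide range. In the control, 277 rods held exactly 2 markers, 146 held 3, 97 held 4, 91 held 5 and 98 held 6. In the mutant the numbers were 197, 128, 95, 64 and 75. Just outside the gate lay 1198 control and 904 mutant barcodes with 1 marker. Rods with 5 or 6 markers were 26.7% of control rods (23.4 to 30.1) and 24.9% of mutant rods (21.3 to 28.7). Those with 2 markers were 39.1% and 35.2%.

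The label was checked with photoreceptor genes that the gate did not use. Crx, the homeobox factor of both photoreceptor types, stood at 432 CPM (counts per 1e+06 UMIs of the rods) in control rods and 484 CPM in mutant rods. After thinning to 1000 UMIs, 39.3% of control rods and 44.4% of mutant rods held a Crx UMI, against 62.2% and 81.2% unthinned. The thinned share was 2.00% and 0.627% in connective tissue cells, which should lack the gene and had median depths of 5077 and 11631 UMIs. Those cells held at most 1 rod marker by choice. Otx2 (1592 and 1743 CPM) and Neurod1, a basic helix-loop-helix factor of photoreceptors (1425 and 1581 CPM), were present at similar levels in both libraries. Rcvrn, which encodes the calcium sensor recoverin, was close to its level in other kept barcodes (3.94 and 5.29 CPM) at 4.79 and 2.57 CPM, while cones of the same libraries held 165 and 143 CPM. The rod transducin alpha subunit Gnat1 had 3 and 0 UMIs, and the photoreceptor kinase gene Grk1 had 4 and 7. These factors do not set rods apart from the cells most like them, as Crx was at 469 and 442 CPM in cones, and precursors held more Otx2 (1983 and 2030 CPM) and Neurod1 (1755 and 1909 CPM) than rods. The cells thus carried factors common to photoreceptors and their precursors, while transcripts of Rcvrn, Gnat1 and Grk1 were rare.

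Outside the gate markers, 15 genes stood furthest above the other kept barcodes in both libraries. Cells were chosen on rod genes, so this is a description. Samd11, a cofactor in photoreceptor gene silencing, led with 332 CPM in control rods and 323 CPM in mutant rods, against 15.1 and 17.7 CPM in the other barcodes. Its relative Samd7 stood at 103 and 106 CPM. Both subunits of the outer segment rim complex were in the group, Rom1 at 1022 and 1002 CPM and Prph2 at 160 and 130 CPM. The phosphodiesterase subunit Pde6b (59.9 and 52.5 CPM), the channel subunit Cngb1 (77.0 and 59.5 CPM) and Tulp1, needed for traffic into the outer segment (420 and 392 CPM), followed. The ciliary kinase Mak (91.8 and 102 CPM), the ciliary kinesin Kif19a (95.4 and 106 CPM) and the agrin receptor gene Lrp4 (109 and 102 CPM), also belonged to it. Pitpnm3 (65.9 and 62.8 CPM), Fabp12 (46.3 and 39.3 CPM), Ebpl (895 and 963 CPM), AC110166.1 (65.1 and 50.3 CPM) and Ccdc175 (52.3 and 40.1 CPM) completed it. The comparison was with all other barcodes pooled, and cones shared these genes. Tulp1, Mak, Kif19a and AC110166.1 stood as high or higher in cones than in rods in both libraries, Tulp1 at 786 and 637 CPM, and Fabp12 did so in the control.

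Genes of the light response that the gate did not use went with the number of gate markers in a cell. The strata were set by rod genes, so this is a description. The inhibitory phosphodiesterase subunit Pde6g was at 14.98 CPM in control rods with 2 markers, 76.8 CPM with 3 to 4 and 640 CPM with 5 to 6. In the mutant it was at 9.58, 101 and 601 CPM. Of the Pde6g UMIs, 412 in control rods and 347 in mutant rods thus lay in those with the most markers, and 15 and 10 in those with 2. Pde6b went from 4.99 to 176 CPM among control rods and from 2.88 to 177 CPM among mutant rods. Cngb1 went from 9.99 to 235 CPM and from 9.58 to 199 CPM. Prph2 went from 52.9 to 343 CPM and from 40.3 to 355 CPM, and Tulp1 from 164 to 881 CPM and from 116 to 910 CPM. The highest and lowest strata did not overlap in their counting intervals for any of these genes. Slc17a7, the vesicular glutamate transporter that fills photoreceptor vesicles, went from 3.00 to 55.9 CPM among control rods and from 0.958 to 52.0 CPM among mutant rods.

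**Figure D1:**
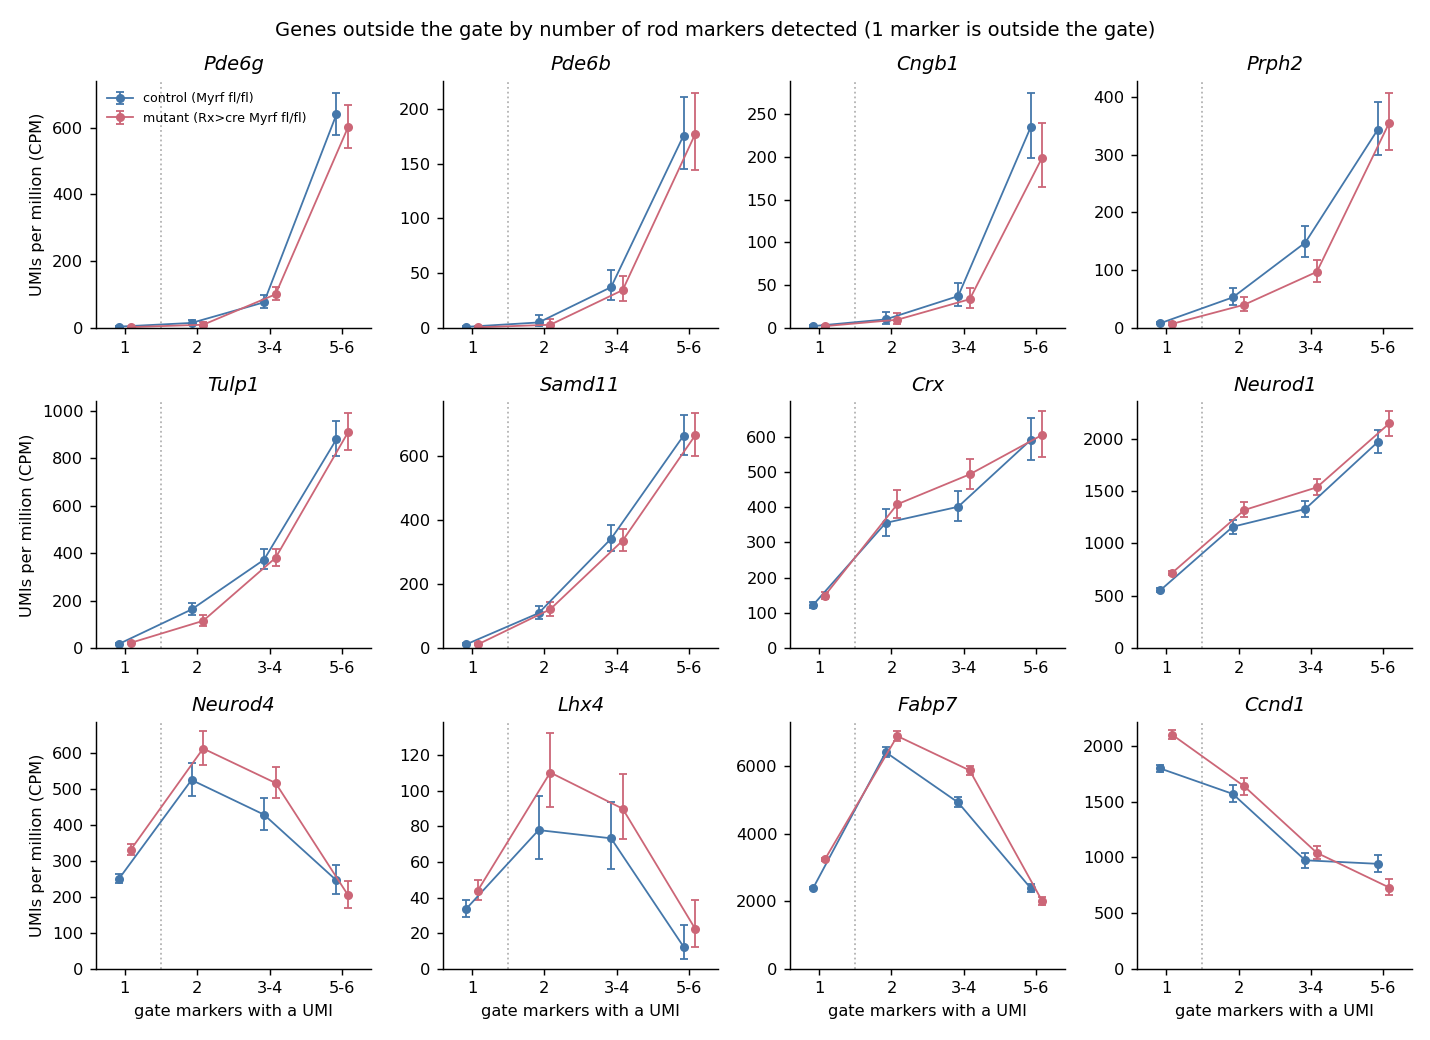
CPM (vertical axis, linear, each panel on its own scale from 0) of 12 genes outside the gate, by the number of gate markers with a UMI (horizontal axis), in control (blue) and mutant (red) barcodes. Points are sums over cells with 95% exact Poisson intervals, and barcodes with 1 marker, left of the dotted line, are outside the gate. Pde6g stands at 640 CPM in control and 601 CPM in mutant rods with 5 to 6 markers and at 101 CPM or less in every other stratum, while Neurod4, Lhx4 and Fabp7 are highest at 2 markers.

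Other genes went the opposite way. Neurod4, a factor of photoreceptor and bipolar precursors, stood at 524 CPM with 2 markers and 245 CPM with 5 to 6 in the control, and at 612 and 205 CPM in the mutant. Fabp7, a brain fatty acid binding protein of immature retinal cells, was at 6406 and 2389 CPM for the control and at 6885 and 2005 CPM for the mutant. Lhx4, a LIM homeobox factor of cone and bipolar precursors, was at 77.9 and 12.4 CPM for the control and at 110 and 22.5 CPM for the mutant. The cell cycle gene Ccnd1 was at 1571 and 943 CPM for the control and at 1638 and 730 CPM for the mutant. All 4 were thus lower in the rods with the most markers, in both libraries, but Ccnd1 by less than 2-fold in the control. Crx (356 to 590 CPM and 408 to 605 CPM) and Neurod1 (1159 to 1966 CPM and 1319 to 2144 CPM) were higher there, and Otx2 stayed within 1.5-fold (1636 to 1423 CPM and 1793 to 1378 CPM).

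Across genes, past the fold in this comparison means a difference of at least 2-fold between rods with 5 to 6 and with 2 markers and an interval apart from 0. In the control 3.89% of the 5322 measured genes were higher and 3.85% lower. In the mutant 3.88% of the 5237 measured genes were higher and 4.41% lower. Lists were counted over both libraries, in which 121 of 4909 measured genes were higher and 54 lower past the fold. A gene was measured with at least 50 UMIs over both strata, so it could enter through the rods with most markers alone. Strata were set by rod genes, so the list counts are a description. Outside the gate, 7 of 8 phototransduction genes and 8 of 13 outer segment and cilium genes were higher in both libraries. So were 3 of 5 genes of the matrix and RPE interface and 4 of 12 ribbon synapse genes. None of 16 glycolysis and hypoxia genes, 14 progenitor and division genes or 12 mitochondrially encoded respiratory genes was past the fold in both. Of 4909 genes measured in both libraries, 121 were higher in both, which was 61.4% of those in the control and 64.0% of those in the mutant. Lower in both were 54, or 38.8% and 26.5%, and 6 went in opposite directions. The log2 differences correlated at r = 0.52 across genes, which are not independent replicates. Median depth was 2916, 2671 and 2677 UMIs in control rods with 2, 3 to 4 and 5 to 6 markers and 3916, 3547 and 3066 UMIs in mutant rods, so the strata with more markers were not the deeper ones. Within 2000 to 10000 UMIs, Pde6g stood at 674 CPM (control) and 709 CPM (mutant) with 5 to 6 markers, and Pde6b at 202 and 194 CPM.

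Of the 6 connective tissue genes on the list, 1 was lower past the fold at 5 to 6 markers in both libraries, and 0 were higher. The lower gene was Postn, a matrix protein (161 and 54.4 CPM for the control, 184 and 58.9 CPM for the mutant). The 6 genes summed to 4701 CPM with 2 markers and 4175 CPM with 5 to 6 in the control, and to 3266 and 1967 CPM in the mutant. Between these strata the sums were higher, at 8369 CPM (control) and 6436 CPM (mutant). Outside that list Col4a1, Col4a2, Fn1, Lgals1, Pcolce, Ptgds and Gas1 were among the 25 genes most clearly lower at 5 to 6 markers. These genes were picked out after their values were seen, so no conclusion on connective tissue genes as a group is drawn from them. Rods that carried connective tissue RNA are described further down, and the strata differed in Pde6b and Neurod4 in the same direction without them.

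The 250 bases upstream of the annotated start are shown for 3 rod genes that stood high together in the rods with the most markers: the arrestin gene Sag, which is in the gate, and Cngb1 and Pde6b, which are not. These 3 were picked because their upstream bases hold a motif named below and no annotated exon. A match in each was therefore set by the choice. The bases were read from RefSeq on GRCm38.p6, 5′ to 3′ on the strand of the gene. Capitals mark 2 short motifs, searched on both strands: TAATCC, the core bound by CRX and OTX2, and TGCTGA, the core of the element bound by NRL. A match on the opposite strand, as that of the CRX core in Sag, is printed in the letters of this strand. Among 32851 mouse promoters in the table, searched over the 250 bases before the start, the first occurs in 6.25% and the second in 16.1%.
Sag, chr1:87803430-87803679, plus strand: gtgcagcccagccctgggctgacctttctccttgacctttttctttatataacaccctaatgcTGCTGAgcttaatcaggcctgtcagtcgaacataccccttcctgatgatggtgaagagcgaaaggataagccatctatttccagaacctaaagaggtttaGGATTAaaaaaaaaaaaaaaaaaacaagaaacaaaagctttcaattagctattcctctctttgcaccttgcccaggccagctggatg
Cngb1, chr8:95306586-95306835, minus strand: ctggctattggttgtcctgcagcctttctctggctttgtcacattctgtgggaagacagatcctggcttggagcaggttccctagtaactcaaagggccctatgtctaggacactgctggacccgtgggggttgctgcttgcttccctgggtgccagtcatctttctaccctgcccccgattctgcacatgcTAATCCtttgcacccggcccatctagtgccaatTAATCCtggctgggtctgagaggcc
Pde6b, chr5:108388123-108388372, plus strand: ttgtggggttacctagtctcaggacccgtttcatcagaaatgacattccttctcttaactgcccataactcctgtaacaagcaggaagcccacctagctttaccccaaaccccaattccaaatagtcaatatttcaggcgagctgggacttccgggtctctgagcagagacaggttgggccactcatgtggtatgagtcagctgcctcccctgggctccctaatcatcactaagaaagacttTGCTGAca
In Sag the CRX core begins 87 bases and the NRL core 187 bases before the start. In Cngb1 the CRX core occurs 58 and 25 bases before it, and in Pde6b the NRL core lies 8 bases before it. Of the 25 genes that were most clearly higher at 5 to 6 markers, 18 were in the table, and 5 of them held the CRX core and 6 the NRL core. Of the 15 genes furthest above other cells, 11 were in the table, with 4 and 3. A match of 6 letters is a description and not a binding site.

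The question put to the rods was which of their genes differed between the genotypes. With a minimum of 50 UMIs over both libraries, 9320 genes were measured. A gene counted as past the fold if its CPM (1 CPM added) differed at least 1.5-fold and the exact Poisson interval of the ratio lay apart from 0. By this rule 325 genes (3.49%) were lower and 204 (2.19%) higher in mutant rods. The median log2 ratio over all measured genes was 0.02, and 93.3% of them lay within 1.5-fold. None of the 15 genes furthest above other cells was past the fold. They were chosen as high in both libraries, which disfavours genes that differ, so no conclusion is drawn from this count. Of the 325 lower genes 239, and of the 204 higher genes 50, had less CPM in rods than in the other barcodes of both libraries. The share of such genes among all 9320 measured was not counted, so no conclusion is drawn from these numbers.

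No photoreceptor fate factor was past the fold. Of 16 such factors 14 were measured, 12 of them outside the gate, and those 12 had a median log2 ratio of 0.14. Prdm1, which holds back the bipolar fate in photoreceptor precursors, had the largest difference, with 208 CPM in control and 281 CPM in mutant rods (log2 ratio 0.43, 0.27 to 0.59). The nuclear receptor Rorb, which acts upstream of Nrl, stood at 1492 and 1723 CPM (0.21). Neurod4 (420 and 487 CPM, 0.21), Crx (0.17), Neurod1 (0.15) and Otx2 (0.13) were each slightly above 0, and their counting intervals were apart from it. Rax, the eye field homeobox gene that controls photoreceptor genes later on, was at 628 and 667 CPM (0.09). Rxrb stood at 43.5 and 54.4 CPM, and Mef2d, Casz1, Samd7 and Samd11 lay between -0.05 and 0.03. The same 12 genes had a median of -0.10 in cones, 0.07 in Otx2 Neurod4 precursors and 0.22 in the other kept barcodes, so a small positive median was not found in rods alone. Nrl (566 and 571 CPM) and Nr2e3 (637 and 647 CPM), which the gate used, were at nearly equal levels.

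Of 24 rod phototransduction genes considered 14 were measured. The 11 outside the gate had a median log2 ratio of -0.10, and none of them was past the fold. Pde6g stood at 197 and 172 CPM (-0.19), Pde6b at 59.9 and 52.5 CPM (-0.19), and the transducin beta subunit Gnb1 at 565 and 509 CPM (-0.15). Cngb1 was at 77.0 CPM in control and 59.5 CPM in mutant rods (-0.37, -0.68 to -0.06). Its partner in the channel, Cnga1, had 31 and 26 UMIs. Unc119, a chaperone of transducin (986 and 920.5 CPM), Pde6d (142 and 136 CPM) and Rgs9, which speeds the shut-off of transducin (29.9 and 27.9 CPM), lay between -0.10 and -0.06. Gnb5, the partner of Rgs9 (71.1 and 88.9 CPM), and Aipl1, a chaperone of the phosphodiesterase (24.8 and 31.2 CPM), were both at 0.32. Reep6, a membrane protein of rods, had 41 and 47 UMIs.

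**Figure D2:**
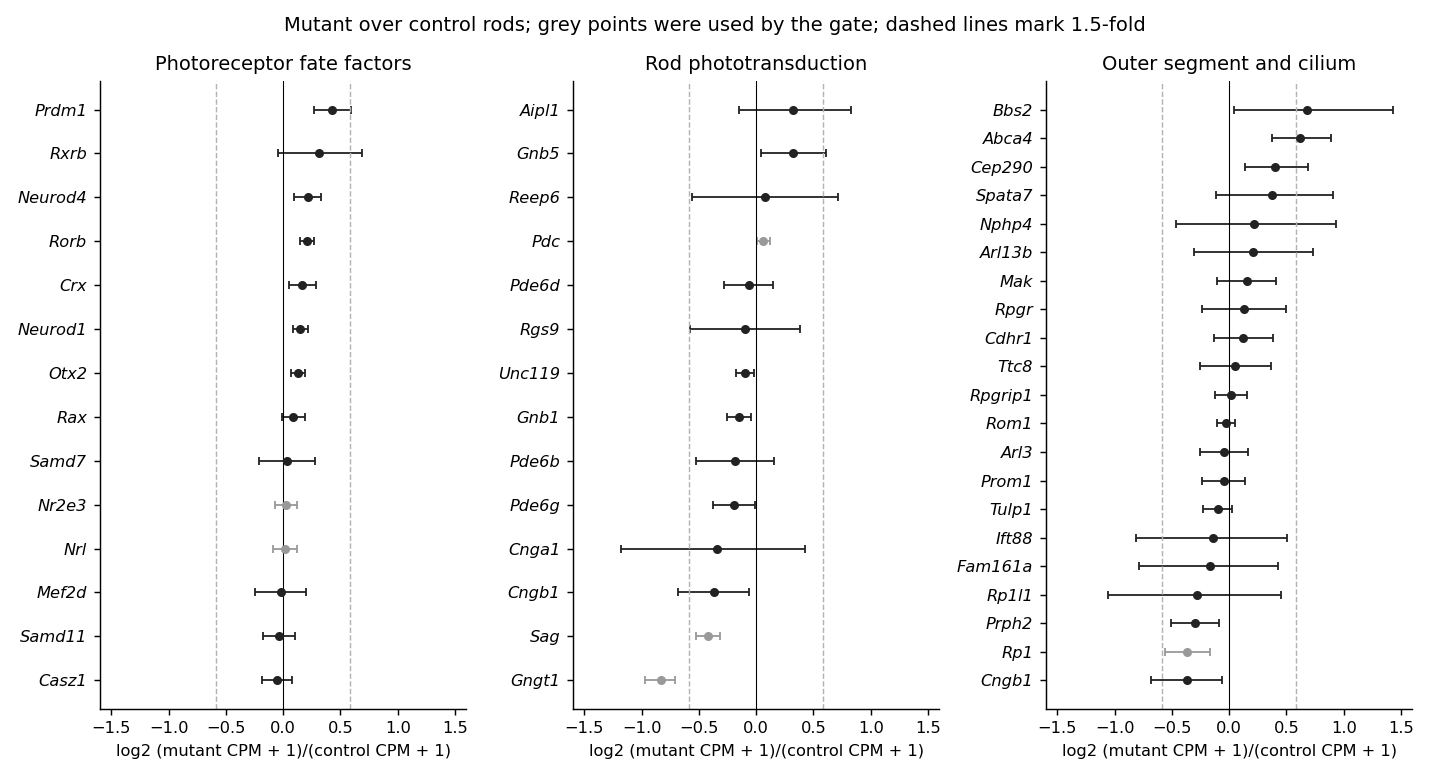
Log2 ratio of mutant over control CPM in rods (horizontal axis, 1 CPM added) for the measured members of 3 lists, with exact conditional Poisson 95% intervals. Grey points were used by the gate and dashed lines mark 1.5-fold. Of the genes outside the gate, Abca4 and Bbs2 alone are past the lines with an interval apart from 0, and both are higher in the mutant.

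Gngt1, the gamma subunit of rod transducin, was the gate marker with a difference past the fold. Control rods held 1268 UMIs (506 CPM) and mutant rods 771 UMIs (283 CPM). Because the gate used Gngt1, rods were chosen once more by the other 5 markers alone, so its own UMIs did not enter the choice. Genes of the light response went with the number of gate markers, so the choice was not independent of its level. This gave 667 control and 547 mutant rods, with Gngt1 at 516 and 286 CPM and a log2 ratio of -0.85 (-0.98 to -0.72). Within 2000 to 10000 UMIs the ratio was -0.83. Sag, treated in the same way, stood at 722 and 527 CPM (-0.45, -0.56 to -0.35), and Rp1, a microtubule protein of the outer segment axoneme, at 182 and 145 CPM (-0.33). Pdc, which encodes phosducin, was at 2251 and 2504 CPM (0.15), and Nrl and Nr2e3 were at 0.09 and 0.03. Gngt1, Sag and Rp1 were thus lower in mutant rods and Pdc a little higher, beyond counting error. After thinning, 25.1% of control and 15.9% of mutant rods of the full gate held a Gngt1 UMI, against 37.8% and 27.5% unthinned. Connective tissue cells held one in 0.232% of control barcodes and in 0 of 957 mutant barcodes, which allows a share of up to 0.313%. These cells were chosen to hold at most 1 rod marker, and Gngt1 is among the markers, so the choice itself lowered this share.

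Gngt1 and Sag were also lower in mutant cones, whose choice used no rod marker. Gngt1 stood at 499 CPM in control and 271 CPM in mutant cones (-0.88), and Sag at 524 and 324 CPM (-0.69). Rp1 was at -0.17 with an interval of -0.44 to 0.10, and Pdc at -0.10, in the direction opposite to rods. These cones were not free of rod transcripts, for 162 of 206 control cones and 229 of 316 mutant cones held at least 2 rod markers. Cones with at least 2 rod markers carried 528 (control) and 504 (mutant) Gngt1 UMIs, and the other cones 11 and 6. For Sag the counts were 565 and 608 UMIs, against 1 and 3 in the other cones. In the cones with at least 2 rod markers Gngt1 was at 637 (control) and 362 CPM (mutant), and Sag at 682 and 436 CPM. In the other cones Gngt1 was at 43.9 and 12.2 CPM and Sag at 3.99 and 6.12 CPM. Cones were 1.46% of control and 2.63% of mutant barcodes.

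Cells of different pups could be told apart in part by sex-linked transcripts. Barcodes with Xist and no UMI of Eif2s3y, Ddx3y, Uty or Kdm5d come from females, and the reverse from males, except where free RNA or doublets intervene. In the control 7134 kept barcodes were of the Y-linked kind and 1031 of the Xist kind. In the mutant it was the other way round, with 1625 and 8392. Sex and genotype were therefore largely confounded between the libraries and cannot be told apart in the pooled values. Within each library the less common kind held fewer rods. In the control, rods were 1.84% of Xist barcodes (19 cells) and 4.74% of Y-linked barcodes (338 cells). In the mutant they were 5.41% of Xist barcodes (454 cells) and 2.83% of Y-linked barcodes (46 cells). Precursors followed the same order, with 2.52% and 11.2% in the control and 9.96% and 7.08% in the mutant.

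Gngt1 followed that order too. In control rods it stood at 94.4 CPM (8 UMIs, 40.8 to 186) in the Xist cells and at 407 CPM (375 to 441) in the Y-linked cells. In mutant rods it stood at 304 CPM (281 to 328) in the Xist cells and at 75.0 CPM (44.5 to 119) in the Y-linked cells. Sag was at 165 and 567 CPM in the control and at 558 and 163 CPM in the mutant. Rods with 5 to 6 markers were 5.26% and 26.6% of these control rods and 26.2% and 10.9% of the mutant rods. These values are a description, since the gate used both genes and the number of markers. With rods chosen by the other 5 markers, a setting added after the data were seen, Gngt1 was at 85.9 CPM (34.5 to 177) in 18 Xist and 415 CPM (382 to 450.3) in 322 Y-linked control rods. In the mutant it was at 308 CPM (284 to 332) in 444 Xist and 66.0 CPM (36.9 to 109) in 44 Y-linked rods. Sag, chosen likewise, was at 138 and 598 CPM for the control and at 579 and 158 CPM for the mutant. The ratio between these kinds of cell inside a library was thus larger than that between the libraries (516 and 286 CPM for Gngt1, 722 and 527 CPM for Sag), on few cells of the less common kind.

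Rods in which neither kind of transcript was seen were shallower (medians of 2384.5 and 2997 UMIs) and held more Gngt1, at 720 and 472 CPM. So the class of a cell moved with its depth as well, although Xist and Y-linked rods had similar medians within a library (3165 and 3166 UMIs for control rods, 3504.5 and 3594.5 for mutant rods). How much of the difference in Gngt1 and Sag goes with the stage or the sex of single pups was not tested.

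**Figure D3:**
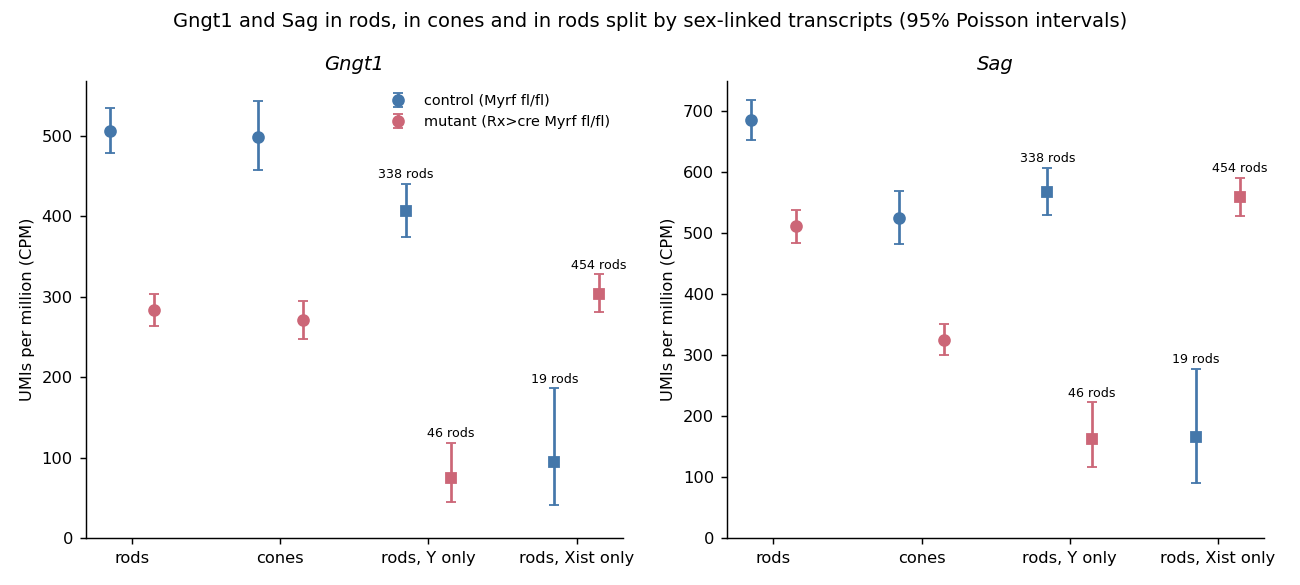
CPM (vertical axis, linear from 0) of Gngt1 and Sag in control (blue) and mutant (red) cells, with exact Poisson 95% intervals. Circles are all rods and all cones, and squares are rods split by sex-linked transcripts, with the number of rods above each. Gngt1 is higher in the control in rods and cones, but in Xist cells the 454 mutant rods stand at 304 CPM and the 19 control rods at 94.4 CPM.

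Of the 22 outer segment and cilium genes 21 were measured, 20 of them outside the gate, with a median log2 ratio of 0.03. Past the fold, 2 were higher, beside 2.19% of all measured genes, and 0 were lower. Abca4, the retinoid flippase of outer segment discs, was higher, at 80.6 CPM in control and 125 CPM in mutant rods (0.62, 0.37 to 0.89), while precursors held 153 and 152 CPM. Bbs2, a part of the BBSome, was higher with 29 and 52 UMIs (0.68). Prph2 stood at 160 and 130 CPM (-0.30, -0.51 to -0.09), and Rom1 (-0.03), Tulp1 (-0.10) and the ciliary gate protein Rpgrip1 (0.01) were close to 0. Cep290, of the transition zone, was at 75.0 and 99.6 CPM (0.40). Among Y-linked cells the ratio of Abca4 was -0.05 and that of Bbs2 -1.20, on 147 and 17 UMIs.

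Rods face the RPE, the tissue in which Myrf acts, so genes of the matrix between them were listed as well. Of 9 measured genes, 2 were lower, beside 3.49% of all measured genes, and 0 higher, and the median was 0.00. The lower genes were Slc16a1, a carrier for lactate (39 and 23 UMIs, -0.81), and Pros1, a ligand for the uptake of outer segments (40 and 24 UMIs, -0.79). Neither kept its direction in both sex-linked classes, with Slc16a1 at 3.15 in Xist cells and Pros1 at 0.28 in Y-linked cells, and neither was past the fold without the rods that carried RNA of other cells. Impg2, a proteoglycan of the interphotoreceptor matrix, was just inside the limit, at 186 CPM in control and 127 CPM in mutant rods (-0.54, -0.75 to -0.34) and at 300.1 and 216 CPM in cones. Rbp3, which encodes the retinoid carrier of that matrix, was at 353 and 379 CPM (0.10), and basigin, Bsg, at 601 and 598 CPM (-0.01). None of the 16 measured ribbon synapse genes was past the fold (median 0.03). Syp stood at 247 and 302 CPM, and Snap25, a protein of vesicle fusion, at 515 and 599 CPM. All 8 genes of rod nuclear architecture were measured and none was past the fold (median 0.01).

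Rods of this gate hold no UMI of 3 cone genes by choice. Of the other 10 cone genes on the list 4 were measured, all above 0. The 4 had a median of 0.38, beside 0.02 over all measured genes. Of the 4, 1 was higher past the fold, beside 2.19% of all measured genes. Gnat2, the alpha subunit of cone transducin, was past the fold, with 32 UMIs (12.8 CPM) in 30 control rods and 91 UMIs (33.4 CPM) in 60 mutant rods (1.32, 0.79 to 2.02). Gnb3 stood at 497 and 684 CPM (0.46), Cngb3 at 67.9 and 84.1 CPM (0.31) and Gngt2 at 3553 and 3899 CPM (0.13). In the cones themselves the median of these 4 genes was -0.09. In precursors it was 0.32 and in the other kept barcodes 0.62, beside the larger share of cones in the mutant library.

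Most genes of sugar breakdown had ratios above 0 in mutant rods, and in precursors and the pooled other barcodes too. All but 3 of the 23 measured glycolysis and hypoxia genes had a ratio above 0 in rods. The median of the 23 was 0.25, beside 0.02 over all measured genes. Past the fold, 3 were higher and 1 was lower, beside 2.19% and 3.49% of all measured genes. Pgk1, phosphoglycerate kinase, stood at 178 CPM (446 UMIs) in control and 296 CPM (806 UMIs) in mutant rods (0.73, 0.57 to 0.90). Pfkp, a phosphofructokinase (59 and 106 UMIs, 0.70), and Pdk1, a kinase that holds pyruvate back from mitochondria (27 and 53 UMIs, 0.80), were also past the fold, but Pfkp was at -0.26 in Y-linked cells. The muscle-type pyruvate kinase gene Pkm was at 978 and 1372 CPM (0.49), Tpi1 at 325 and 437 CPM (0.42) and Gapdh at 1291 and 1589 CPM (0.30). Ldha, the lactate dehydrogenase subunit that rods use in quantity, was at 2230 and 2513 CPM (0.17). Hk1, a hexokinase, was lower, with 47 and 24 UMIs (-1.01). The median of the same genes was 0.44 in precursors, 0.41 in other kept barcodes and 0.08 in cones, and Pgk1 itself was at 0.95, 0.82 and 0.77. In cones 14 of the 23 genes had a ratio above 0, with Ldha at 0.03 and Aldoa at -0.13. Pgk1 lies on the X chromosome (chrX:106187100-106203699 on GRCm38), and in Y-linked rods it stood at 185 CPM (control) and 396 CPM (mutant).

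**Figure D4:**
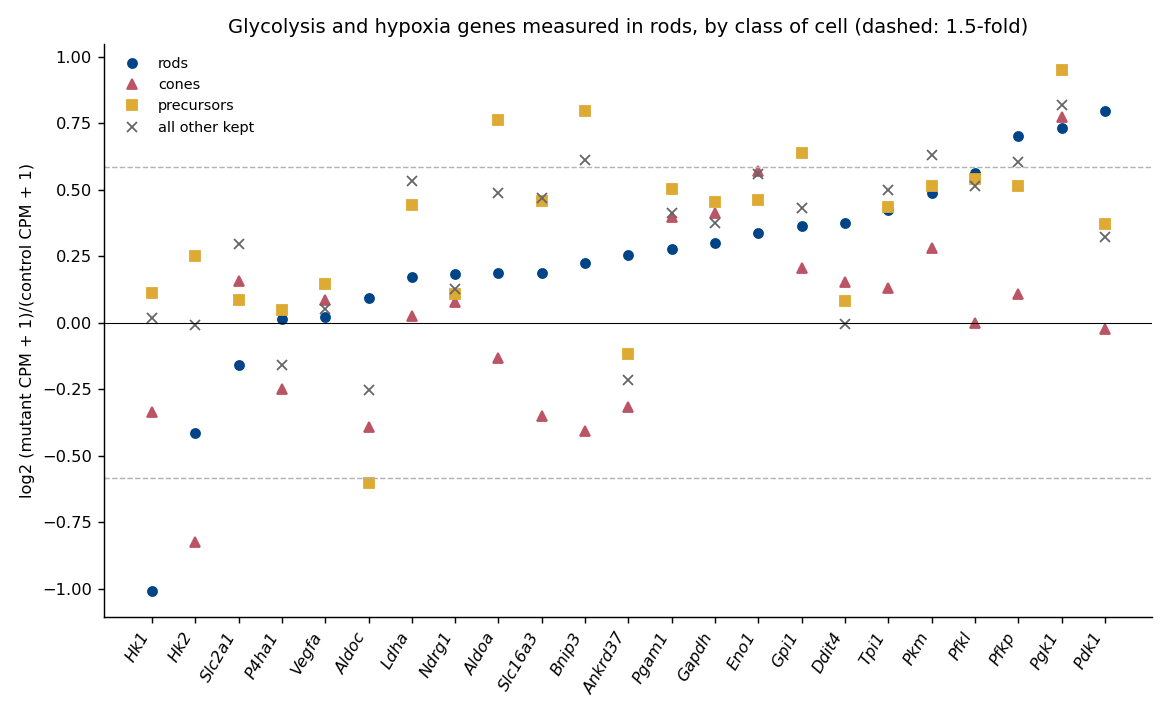
Log2 ratio of mutant over control CPM (vertical axis, 1 CPM added) of the 23 glycolysis and hypoxia genes measured in rods, ordered by their ratio in rods, in rods, cones, precursors and all other kept barcodes. Dashed lines mark 1.5-fold. Pgk1 is above the upper line in all 4 classes, and Hk1 is below the lower line in rods only.

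Respiratory chain genes differed little. The 23 nuclear genes had a median of -0.06 and the 13 mitochondrially encoded ones a median of -0.19, and none was past the fold. Of 16 measured immediate early and heat shock genes, 4 were lower, beside 3.49% of all measured genes, and 0 higher (median -0.20, or -0.11 without rods that carried RNA of other cells). Those were Junb (116 and 66.5 CPM, -0.80), Zfp36 (48 and 17 UMIs, -1.48) and the inducible chaperone genes Hspa1a (46 and 29 UMIs, -0.73) and Hspa1b (81 and 25 UMIs, -1.71). Hspa1a was at 0.13 without the rods that carried RNA of other cells, and in Y-linked cells Hspa1a was at 2.11 and Hspa1b at 0.31. Junb was at 0.18 in Xist cells. Of 14 measured p53 and cell death genes, Phlda3 was lower (51 and 29 UMIs, -0.87), beside 3.49% of all measured genes. Of the 14, 0 were higher, and the median was 0.01. Bax (197 and 204 CPM) and Mdm2 (44.7 and 50.7 CPM) were near level. Of 4 measured genes of the photoreceptor stress list, Cebpd (-1.45), Mt1 (-1.10) and Mt2 (-1.99) were lower, beside 3.49% of all measured genes, and the median was -1.27. The median of the same genes was -0.05 in cones, -0.44 in precursors and -0.49 in the other kept barcodes. In rods it was -0.52 without those that carried RNA of other cells.

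Genes of earlier stages were measured in rods as well. Progenitor and division genes summed to 3307 CPM in control and 3374 CPM in mutant rods, against 5259 and 6272 CPM in the other kept barcodes, and neurogenic genes to 3278 and 3530 CPM, against 3133 and 3890 CPM. In connective tissue cells the sums were 1765 and 1720 CPM for the first list and 763 and 685 CPM for the second. Of 18 progenitor and division genes, Sox2 (67.9 and 103 CPM, 0.59), Mcm3 (40 and 73 UMIs, 0.71) and Mcm5 (42 and 74 UMIs, 0.67) were higher in mutant rods, beside 2.19% of all measured genes, 0 were lower, and the median was 0.05. None of 13 neurogenic genes was past the fold (median 0.01). Sox4, which maintains neuronal precursors, was at 634 and 761 CPM (0.26). Of genes of other neurons, Trpm1, the channel of ON bipolar cells that pigment cells also make, was lower in mutant rods, at 45.1 and 10.3 CPM (-2.03). Its ratio was -1.08 without the rods that carried RNA of other cells. Ptf1a, of amacrine and horizontal precursors, was lower as well, with 70 and 34 UMIs (-1.10). The other 3 bipolar genes, 4 amacrine and horizontal genes and 3 ganglion genes that were measured were not past the fold. Over all measured genes the share of lower ones was 3.49%.

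The largest differences were in crystallins, the proteins of the lens. There were 10 crystallin genes with at least 50 UMIs in control rods and 0 in mutant rods, and no other gene did. Cryge had 416 UMIs in control rods, at least 151-fold more than the mutant could hold with 3 UMIs. Cryga (307 UMIs), Crybb3 (301 UMIs) and Cryaa (284 UMIs) followed. A UMI of 1 of 12 crystallins was present in 76.4% of control rods and 3.76% of mutant rods, and in 79.4% and 11.1% of the other kept barcodes. Lens transcripts were thus present in rods and in other cells of the control library at similar shares, although the lens had been removed by dissection.

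**Figure D5:**
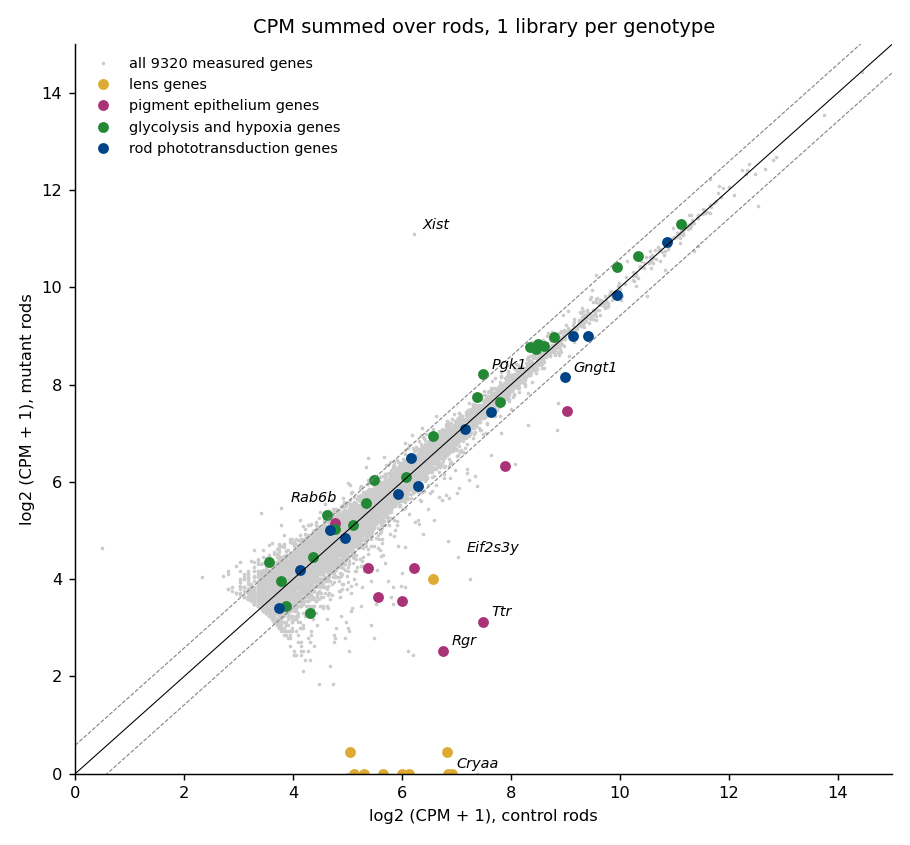
Log2 of CPM + 1 in control rods (horizontal axis) and mutant rods (vertical axis) for the 9320 genes measured, each summed over all rods of a library. The solid line marks equal levels and dashed lines 1.5-fold. Lens genes (yellow) lie far below the line, most of them at 0 in the mutant, whereas rod phototransduction genes (blue) follow the line except Gngt1.

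RNA of other cells was also gathered in single rods. A marker list of another cell type took 1% or more of the UMIs in 103 control rods and 18 mutant rods. Connective tissue genes did so in 86 and 13 of them, RPE genes in 9 and 2, lens genes in 5 and 0 and red blood cell genes in 5 and 3. The highest share was 94.5% in the control and 84.1% in the mutant, of globin genes. All 6 connective genes were measured, with Col1a1 and Lum lower, and their summed level was 5825 CPM in control and 4273 CPM in mutant rods, against 16561 and 11985 CPM in other barcodes. The median rod had 0.235% of its UMIs in connective genes (control) or 0.0232% (mutant). The median log2 ratio of the 6 genes was -0.37 in all rods and -2.38 without the rods that carried RNA of other cells. The 12 RPE genes summed to 1294 and 359 CPM, with 8 of 9 measured genes lower and Rpe65, Lrat and Slc6a20a at 0 in mutant rods. Rgr was at 107 and 4.78 CPM, but 86.9% of its control UMIs came from 3 barcodes. For Ttr and Fabp4, at 177 and 151 CPM in control rods and at 7.72 and 15.1 CPM in mutant rods, the RNA was likewise in few cells, with Fabp4 in 14 control rods and 94.5% of its UMIs in 3 of them. The ratio of Fabp4 was -3.28 without the rods above 1% of a list (361 and 41 UMIs), nearly the same as with them. Trf, Clic6 and Rlbp1 belong to the same lower genes. All 10 measured lens genes were lower, 4 of 5 endothelial genes were lower, 1 of 4 globin genes (Hbb-bt) was higher, and no macrophage gene was measured. Over all measured genes the shares were 3.49% lower and 2.19% higher. Without the 103 and 18 rods with such RNA, 8759 genes were measured, 220 were lower and 186 higher, and 153 and 138 of these were the same genes. The part of such RNA in the other differences was not tested.

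Beside the crystallins, the Y-linked genes Eif2s3y (129 and 20.9 CPM) and Uty (41.9 and 7.35 CPM) were among the lower genes. The highest ratios of all were those of Xist (73.4 and 2188 CPM) and its antisense gene Tsix (1 and 65 UMIs). The counting may not separate those 2 overlapping genes. All 4 genes are sex-linked.

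Rab6b, a small GTPase of neuronal Golgi traffic, had more CPM in rods than in the other barcodes of both libraries and stood at 12.8 CPM (32 UMIs in 30 rods) in control and 43.4 CPM (118 UMIs in 96 rods) in mutant rods (1.69, 1.19 to 2.37). It was also higher in precursors (13.5 and 34.9 CPM) and in the other kept barcodes (9.94 and 24.4 CPM). In Y-linked rods it stood at 14.9 and 62.5 CPM. Srcin1, a regulator of Src kinase (15 and 46 UMIs, 1.36), Lrrc73 (14 and 43 UMIs, 1.35), Fzd10, a Wnt receptor (21 and 54 UMIs, 1.15), and Kcnd3, a potassium channel gene (25 and 63 UMIs, 1.14), followed with 4931406C07Rik (22 and 63 UMIs, 1.30). In cones Srcin1 (30.6 and 34.5 CPM), Lrrc73 (41.7 and 32.9 CPM) and Fzd10 (47.2 and 63.2 CPM) stood higher than in rods, where none of the 3 was above 19.8 CPM. Timp1 (17 and 50 UMIs, 1.32) lay in 11 and 14 rods, and its ratio was 0.33 without the rods that carried other RNA. Timp1 and 4931406C07Rik had less CPM in rods than elsewhere in the control and more in the mutant. Of higher genes with less CPM in rods than elsewhere in both, Bhlhe22, a factor of bipolar and amacrine subtypes (33 and 79 UMIs, 1.08), and Foxp2 (22 and 53 UMIs, 1.07) were spread over 27 and 53 rods and 21 and 34 rods. Tnmd, Pi16 and Clec3b, which fibroblasts and tendon cells express, had ratios of 1.96, 1.64 and 1.30, and of -0.55, 0.23 and -0.47 without those rods. Necab2, Hhip, Prss56, Gm42047 and D630033O11Rik completed that group at 1.06 to 1.72.

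Myrf itself was hardly found in rods. Control rods held 20 UMIs (7.98 CPM) and mutant rods 3 UMIs (1.10 CPM), beside 11.3 and 1.72 CPM in the other kept barcodes, so its level in rods was not above that in the other cells. Tmem98, which encodes a binding partner of MYRF, stood at 37.5 and 18.4 CPM (-0.99), and its ratio was 0.17 without the rods that carried RNA of other cells.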

How the data were processed

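Single-cell RNA sequencing of P0 mouse eye cups was available as 1 control and 1 mutant library, each a pool of 3 eye cups. The authors made 10x 3′ libraries and counted UMIs against mm10 (GRCm38). The submitters' processing notes name Cell Ranger 7.1.0 and Seurat 4.1.1, while the matrix headers give 3.1.0. The deposited matrices hold counts of UMIs for each gene in each barcode, not normalized. Of the study's filters, 200 genes and 15% mitochondrial UMIs were kept, and its doublet limit of 2000 UMIs was an alternative.

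The gate, the gene lists and the settings were chosen with earlier results of these data known. Groups followed the genotype labels. Counts were summed over rods and divided by their total (CPM). Ratios set mutant against control on a log2 scale after adding 1 CPM, and intervals (95%) are exact Poisson or Clopper-Pearson intervals. Cones were barcodes with at least 2 of Thrb, Rxrg and Opn1sw, and precursors held Otx2 and Neurod4 but at most 1 rod marker. Connective cells, for background, and rods with RNA of other cells were defined after the data were seen, as barcodes with at least 1% of their UMIs in a marker list. Connective cells also had to hold fewer than 2 rod markers. Named genes were the gate markers, all measured fate factors and phototransduction genes, the 10 highest and 10 lowest ratios (genes with less CPM in rods than elsewhere apart), 15 genes furthest above other cells, and list members past the fold. Positions came from GENCODE M21. A floor of 3 UMIs was used for counts of 0. 1 gene is not reported here. The script for gene ratios was tested on simulated data. Alternatives varied filters, gate, doublets (Scrublet in scanpy 1.11.5), depth, sex-linked classes, scaling, added CPM and count minimum. Python 3.11.15, numpy 2.4.6, scipy 1.17.1 and pandas 2.3.3 were used.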

Additional observations from a re-analysis of the deposited data

How the results depend on the processing

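No paired analysis was possible because each genotype had 1 library. Leaving out a replicate was not possible either.

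The log2 ratio of the rod share (-0.11) was -0.69 with at most 2000 UMIs, 0.073 with Nrl required, 0.16 with no cone gene exclusion, 1.55 in Xist cells alone and -0.74 in Y-linked cells alone. It was 0.069 without rods loaded with other RNA, an alternative added after the data were seen. The 325 lower genes became 101 with at most 2000 UMIs (961 genes measured), 95 after thinning (3875 measured) and 65 with a minimum of 200 UMIs (4468 measured). The 204 higher genes became 91 with at most 2000 UMIs, 351 in Xist cells, 131 with 5 CPM added and 32 with a minimum of 200 UMIs. The phototransduction median was 2.83 in Xist and -0.46 in Y-linked cells. That of fate factors was 0.76 with at most 2000 UMIs and 0.94 in Xist cells, and that of glycolysis genes 0.62 in Xist cells. In Xist cells the median of all genes was itself 0.24, on 19 control rods. The causes were not tested.

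Of 43 named genes past the fold, 42 stayed past it under either other scaling, 39 with 5 CPM added, 32 with Nrl required, 31 with no cone gene exclusion, 30 with doublets removed, 27 with at most 5% mitochondrial UMIs, 26 without loaded rods, 22 within 2000 to 10000 UMIs, 20 with at least 3 markers, 9 of 41 in Y-linked cells, 3 of 41 in Xist cells, 4 after thinning and 2 of 42 with at most 2000 UMIs. Signs turned in these cases. With at most 2000 UMIs: Clic6 (0.78), Gnat2 (-3.18), Mcm3 (-3.71), Sox2 (-5.84), Srcin1 (-2.33) and Timp1 (-2.33), on 14 UMIs or fewer. With doublets removed: Timp1 (-0.21). With Nrl required: Fabp4 (0.74). After thinning: Cebpd (0.057) and Mcm3 (-1.35). In Xist cells: Clic6 (2.49), Fabp4 (3.98), Gngt1 (1.68), Junb (0.18), Rgr (2.61), Slc16a1 (3.15) and Trpm1 (3.54). In Y-linked cells: Abca4 (-0.049), Bbs2 (-1.20), Hspa1a (2.11), Hspa1b (0.31), Lrrc73 (-2.14), Pfkp (-0.26) and Pros1 (0.28). Without loaded rods: Hspa1a (0.13) and Tmem98 (0.17).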
